A study of Saccharomyces cerevisiae with 18 samples.

Results

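The arginine genes of baker's yeast were followed here in cultures exposed to extracts of horsetail (Equisetum arvense), a medicinal herb. The set held 9 genes, ARG2, ARG7, ARG8, ORT1, ARG3, CPA1, ARG1, ARG4 and CAR1, found by gene symbol in the array annotation. Each had 1 probe set, which makes 9 of the 5716 probe sets tested. Of these genes 8 belong to arginine synthesis, while CAR1 encodes arginase, which breaks arginine down.

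The study asked whether the yeast transcriptome reflects how extracts of a single plant species differ in composition. Log-phase cultures of the diploid Saccharomyces cerevisiae strain BY4743, in minimal medium with uracil at 30 °C, received dried extract at 2.5 mg/mL for 20 min. There were 18 arrays, namely 2 each for the extracts USA #2, USA #6, USA #7, Europe #11 and India #13, 4 for China #8, and 4 for control cultures without extract. Every culture, control included, carried the strain's his3Δ1, leu2Δ0 and ura3Δ0 alleles on both homologues and met15Δ0 and lys2Δ0 on only a single homologue. Carriers had been removed from the commercial extracts with aqueous methanol. The methods call the cultures biological replicates, and the labels state that a culture was inoculated with a single colony.

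Yeast makes arginine from glutamate. Acetylated intermediates are turned into ornithine inside the mitochondrion, ornithine is exported to the cytosol, and there it takes up carbamoyl phosphate and then aspartate nitrogen to become arginine. When arginine is plentiful, the Arg80, Arg81, Arg82 and Mcm1 proteins repress some of the synthesis genes and activate the breakdown genes. Gcn4 activates synthesis genes when amino acids run short.

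Signals were log2 values from RMA, a procedure that corrects background, gives all arrays the same distribution and summarises the probes of each probe set. Array medians lay between 9.55 and 9.64. LEU2 and URA3, deleted in the strain, had median signals of 3.56 and 3.23, which show where the scale ends for an absent transcript. HIS3 had a median of 11.55. The his3Δ1 allele removes only part of that gene, and whether its probes lie in the deleted part was not checked. The heterozygous MET15 (listed as MET17) and LYS2 had medians of 12.77 and 9.36. Of 8 haploid-specific genes, medians ranged from 3.99 for STE18 to 9.59 for RME1. Titles open with a number that reads as a date, and the 2 such numbers are called batches here. Which step of the work they date is not stated. Batch 1 holds replicates 1 and 2 of control and China #8, and batch 2 holds all others. The 18S rRNA probe sets differed by −1.54 to −1.12 (3′ minus 5′, log2) on batch 2 arrays of China #8 and control, by −2.85 to −2.08 on batch 1 arrays and by −2.83 to −2.34 on the other extract arrays, whereas ACT1 gave 0.257 to 0.415 throughout. Because signals are relative to the RNA hybridised, a change in the amount of RNA per cell cannot be told apart from none.

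Most synthesis genes were higher with most extracts, and ARG4 passed the test with none. In the comparisons with control that passed, no gene of the set was lower. ARG1, ARG3, ARG7 and ARG8 were higher than in control cultures with all 6 extracts, a pattern met by 2.59% of all probe sets tested. Of these 4 genes ARG1 alone held this pattern without Europe #11 replicate 2 (1.21% of all), where ARG3, ARG7 and ARG8 lost the call with Europe #11 (limma adjusted p = 0.195, 0.240 and 0.128). Without either USA #6 array, or without Europe #11 replicate 1, 2 genes held it, ARG1 and ARG8. The largest change was that of ARG3 with India #13, at 4.76-fold. Each extract was compared with control by limma over all 7 conditions, with Benjamini-Hochberg adjustment over 5716 probe sets and a threshold of 0.05.

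**Figure D1:**
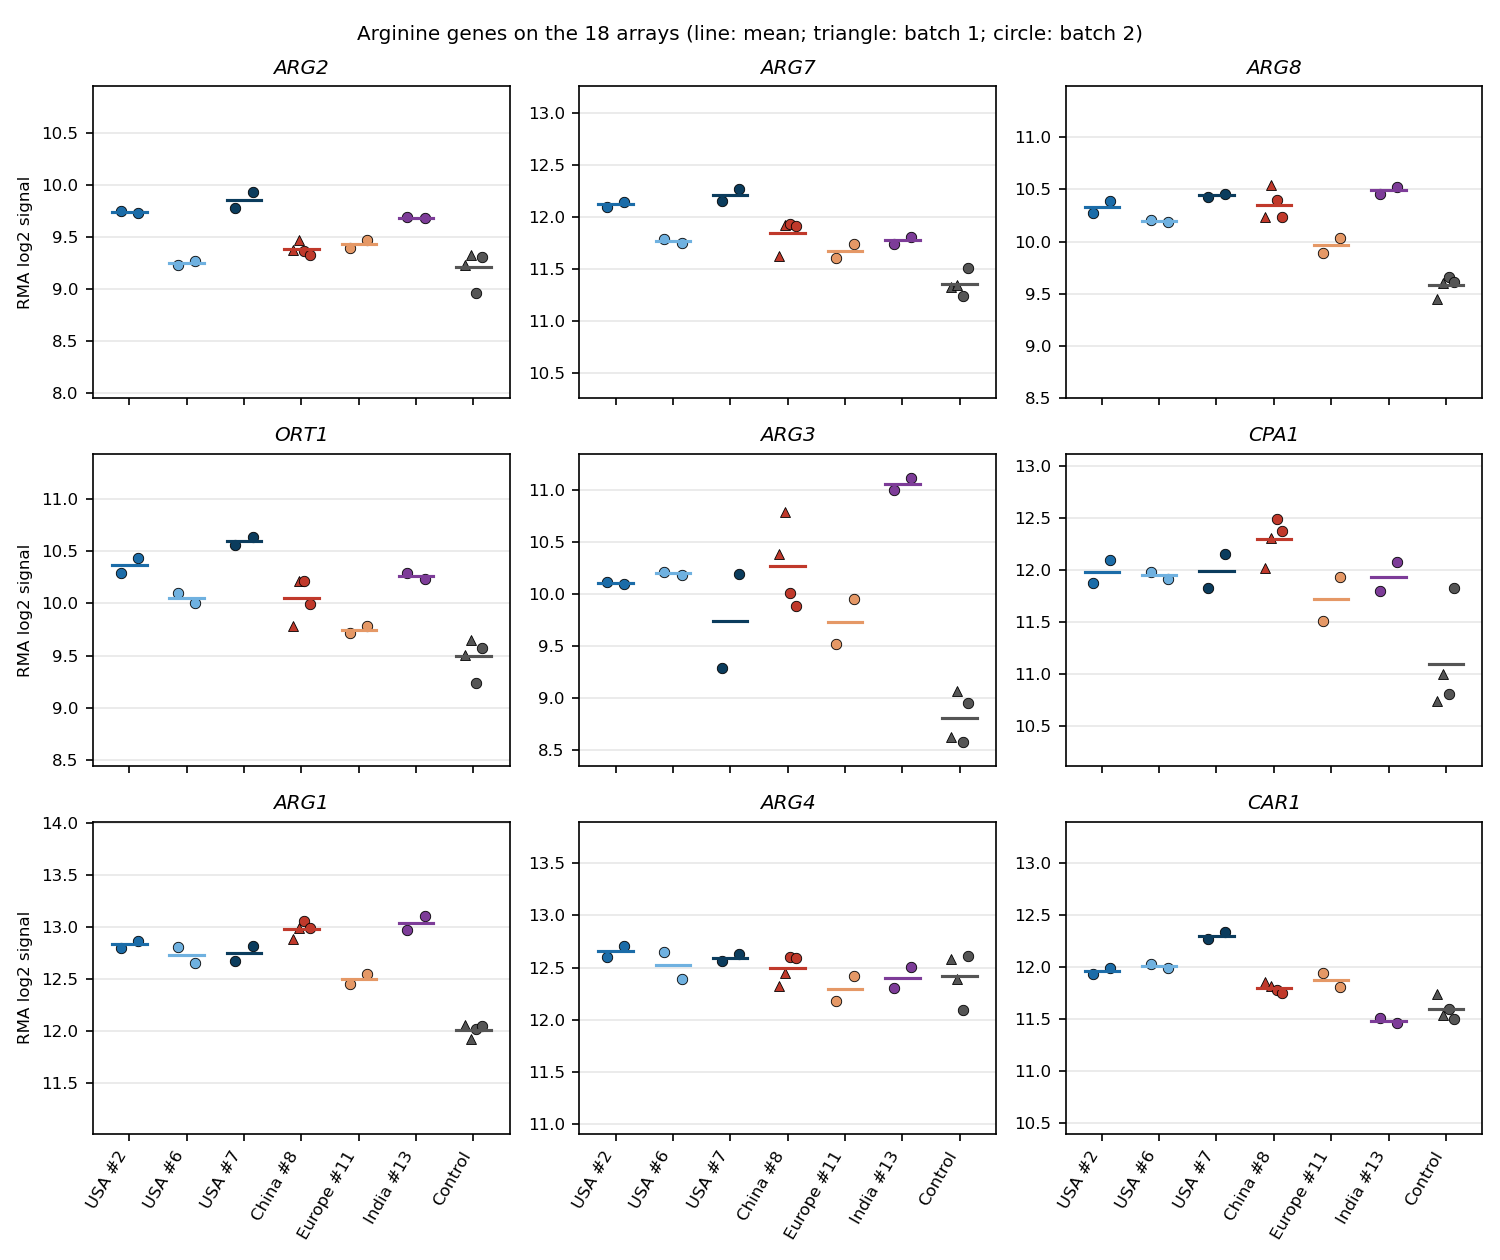
RMA log2 signal of the 9 arginine genes (vertical axes, each spanning the same number of log2 units) on the 18 arrays, by condition (horizontal axis). Points are arrays, triangles for batch 1 and circles for batch 2, and lines are condition means. For ARG7, ARG8, ORT1, ARG3 and ARG1 all 14 extract arrays lie above all 4 control arrays.

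With USA #2, 8 of the 9 genes were higher (10.7% of all probe sets were), and with USA #7 likewise 8 (20.4% of all). With China #8, 7 were higher (19.9% of all), and with India #13 likewise 7 (14.2% of all). USA #6 gave 6 (4.11% of all) and Europe #11 gave 5 (12.4% of all). The median log2 fold change over the 9 genes was 0.77 with USA #2, 0.56 with USA #6, 0.85 with USA #7, 0.56 with China #8, 0.31 with Europe #11 and 0.77 with India #13. Over all tested probe sets the median stayed between −0.00 and 0.03. None of the 9 genes was lower, where 8.48% of all probe sets were lower with USA #2, 2.9% with USA #6, 19.1% with USA #7, 20.1% with China #8, 10% with Europe #11 and 14.6% with India #13. These 6 comparisons share the 4 control arrays. Some counts rested on single arrays, since 5 genes were called with USA #2 without its replicate 2, 2 with USA #6 without its replicate 1, and 1 with Europe #11 without its replicate 2. Over all probe sets 2.64%, 1.64% and 6.93% were then called in either direction.

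The mitochondrial steps come first in the pathway. ARG2 encodes acetylglutamate synthase, which catalyses the entry step. It read 9.75 and 9.73 with USA #2, 9.23 and 9.27 with USA #6, 9.79 and 9.94 with USA #7, 9.37, 9.47, 9.36 and 9.33 with China #8, 9.40 and 9.47 with Europe #11, and 9.69 and 9.69 with India #13, against 9.23, 9.33, 8.97 and 9.31 in control. The USA #2, USA #7 and India #13 arrays stood clear of control, while the USA #6 arrays lay inside the control range. ARG2 was higher with USA #7 (log2 fold change 0.65, SE 0.0932, limma adjusted p = 0.000191), USA #2 (0.53, adjusted p = 0.00206) and India #13 (0.48, adjusted p = 0.00221). The differences of 0.22 with Europe #11, 0.18 with China #8 and 0.04 with USA #6 did not pass (adjusted p = 0.0977, 0.0804 and 0.866).

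ARG8, acetylornithine aminotransferase, acts later in the mitochondrion. Its signals were 10.28 and 10.39 with USA #2, 10.21 and 10.19 with USA #6, 10.42 and 10.46 with USA #7, 10.24, 10.54, 10.40 and 10.24 with China #8, 9.89 and 10.03 with Europe #11, and 10.46 and 10.52 with India #13, against 9.45, 9.60, 9.66 and 9.62 in control. All 14 extract arrays were above all 4 control arrays, and the Europe #11 pair was the nearest to them. The log2 fold change was 0.91 with India #13 (SE 0.0926, limma adjusted p = 1.48e-05) and 0.38 with Europe #11 (adjusted p = 0.0107), and the other 4 extracts lay between these at 0.62 to 0.86.

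ARG7, the ornithine acetyltransferase, releases ornithine and recycles the acetyl group. It read 12.10 and 12.15 with USA #2, 11.79 and 11.75 with USA #6, 12.15 and 12.27 with USA #7, 11.63, 11.93, 11.93 and 11.91 with China #8, 11.61 and 11.74 with Europe #11, and 11.74 and 11.81 with India #13, against 11.33, 11.35, 11.25 and 11.51 in control. Again no extract array reached down into the control range, although Europe #11 replicate 1 and China #8 replicate 1 came close to control replicate 4. The log2 fold change ran from 0.31 with Europe #11 (limma adjusted p = 0.0319) to 0.85 with USA #7 (SE 0.0964, adjusted p = 3.26e-05). The Europe #11 call was lost when control replicate 2 or 3, or either Europe #11 array, was left out.

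ORT1 encodes the carrier that moves ornithine out of the mitochondrion. Its signals were 10.30 and 10.44 with USA #2, 10.10 and 10.005 with USA #6, 10.56 and 10.63 with USA #7, 9.79, 10.21, 10.22 and 9.998 with China #8, 9.71 and 9.79 with Europe #11, and 10.29 and 10.24 with India #13, against 9.51, 9.65, 9.24 and 9.57 in control. The extract arrays were all above control, by little with Europe #11 and by most with USA #7. ORT1 was higher with USA #7 (log2 fold change 1.10, SE 0.125, limma adjusted p = 3.37e-05) and with the other extracts at 0.56 to 0.88, except Europe #11, where 0.26 did not pass (adjusted p = 0.152).

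In the cytosol, ornithine and carbamoyl phosphate are joined by ARG3, ornithine carbamoyltransferase. ARG3 read 10.11 and 10.10 with USA #2, 10.22 and 10.19 with USA #6, 9.29 and 10.19 with USA #7, 10.38, 10.79, 10.01 and 9.88 with China #8, 9.52 and 9.95 with Europe #11, and 10.999 and 11.12 with India #13, against 8.62, 9.07, 8.58 and 8.95 in control. Both India #13 arrays were above every other array. The USA #7 pair was the most uneven (mean 9.74 ± 0.64, SD, n = 2). ARG3 was higher with India #13 (log2 fold change 2.25, SE 0.256, limma adjusted p = 3.35e-05), China #8 (1.46, adjusted p = 9.67e-05), USA #6 (1.40, adjusted p = 0.00412), USA #2 (1.30, adjusted p = 0.00439), USA #7 (0.94, adjusted p = 0.0108) and Europe #11 (0.93, adjusted p = 0.0194). Without USA #7 replicate 2 the ARG3 value for that extract was 0.49 and no longer passed, and without replicate 1 it was 1.38.

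CPA1 is the small subunit of the carbamoyl phosphate synthetase that serves arginine. It read 11.87 and 12.09 with USA #2, 11.98 and 11.91 with USA #6, 11.82 and 12.15 with USA #7, 12.02, 12.31, 12.49 and 12.37 with China #8, 11.51 and 11.93 with Europe #11, and 11.79 and 12.08 with India #13, against 10.74, 11.002, 10.81 and 11.83 in control. Control replicate 4 stood apart from the other 3 control arrays and above 3 of the 14 extract arrays, while the rest of the control arrays were below every extract array. CPA1 passed with China #8 (log2 fold change 1.20, SE 0.200, limma adjusted p = 0.000341), USA #7 (0.89, adjusted p = 0.0112), India #13 (0.84, adjusted p = 0.0207) and USA #2 (0.89, adjusted p = 0.0242). It did not pass with USA #6 (0.85, adjusted p = 0.0516) or Europe #11 (0.62, adjusted p = 0.0806). Without control replicate 4, CPA1 was 1.10 and 0.87 higher with these extracts and passed (adjusted p = 0.00107 and 0.00357). Among arrays of batch 2 alone, where that array is 1 of only 2 controls, CPA1 no longer passed with USA #2, USA #7 or India #13 (adjusted p = 0.0786, 0.0606 and 0.0890).

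ARG1, argininosuccinate synthetase, had the smallest SD among control arrays of the 9 genes. Its signals were 12.80 and 12.87 with USA #2, 12.80 and 12.65 with USA #6, 12.67 and 12.82 with USA #7, 12.88, 12.98, 13.06 and 12.99 with China #8, 12.45 and 12.55 with Europe #11, and 12.97 and 13.10 with India #13, against 12.06, 11.92, 12.02 and 12.05 in control. The control arrays lay within a narrow band (12.01 ± 0.07, SD, n = 4), below every extract array. ARG1 was higher with India #13 (log2 fold change 1.02, SE 0.0800, limma adjusted p = 1.22e-06), China #8 (0.97, SE 0.0653, adjusted p = 2.84e-07), USA #2 (0.82, adjusted p = 1.74e-05), USA #7 (0.73, adjusted p = 2.54e-05), USA #6 (0.71, adjusted p = 6.12e-05) and Europe #11 (0.49, adjusted p = 0.00119).

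ARG4 encodes argininosuccinate lyase, which forms arginine in the last step. It read 12.60 and 12.71 with USA #2, 12.65 and 12.39 with USA #6, 12.56 and 12.63 with USA #7, 12.32, 12.45, 12.60 and 12.60 with China #8, 12.18 and 12.42 with Europe #11, and 12.30 and 12.50 with India #13, against 12.58, 12.39, 12.09 and 12.61 in control. The extract and control arrays overlapped throughout, with 3 of the 14 extract arrays above all controls. The log2 fold change lay between −0.12 with Europe #11 and 0.24 with USA #2 (limma adjusted p between 0.243 and 0.941), with an SE of 0.140 for all extracts but China #8. ARG4 did not pass under any of the alternative settings tried, where its value stayed between −0.24 and 0.30.

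ARG4 was therefore set beside the other genes on each array, a comparison chosen after the values were seen and given without a test. Averaged over the 14 extract arrays, the log2 change of ARG3 exceeded that of ARG4 by 1.32, that of CPA1 by 0.85, that of ARG1 by 0.74, that of ARG8 by 0.65, that of ORT1 by 0.60 and that of ARG7 by 0.46. For ARG3, CPA1, ARG1 and ORT1 the difference from ARG4 was larger on all 14 extract arrays than on any control array, and for ARG7 and ARG8 on 13. For ARG2 and CAR1 the excess was 0.25 and 0.22. On 10 and 5 of the extract arrays, in that order, their difference from ARG4 was above that on every control array. ARG4 itself changed by 0.07 on average, so these differences largely repeat the changes given above. The share over all probe sets was not computed.

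CAR1, arginase, opens arginine breakdown. It read 11.93 and 11.99 with USA #2, 12.03 and 11.99 with USA #6, 12.27 and 12.34 with USA #7, 11.86, 11.82, 11.78 and 11.75 with China #8, 11.94 and 11.81 with Europe #11, and 11.51 and 11.46 with India #13, against 11.74, 11.54, 11.60 and 11.51 in control. The arrays of 5 extracts were above all controls, and the India #13 arrays lay at the lower end of the control arrays. CAR1 was higher with USA #7 (log2 fold change 0.71, SE 0.0752, limma adjusted p = 2.13e-05), USA #6 (0.42, adjusted p = 0.00374), USA #2 (0.36, adjusted p = 0.00556), China #8 (0.21, adjusted p = 0.0157) and Europe #11 (0.28, adjusted p = 0.0167). With India #13, the extract with the highest ARG1, ARG3 and ARG8, CAR1 differed by −0.11 and did not pass (adjusted p = 0.286). The China #8 call for CAR1 was lost within either batch alone (differences 0.20 in batch 1 and 0.21 in batch 2).

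**Figure D2:**
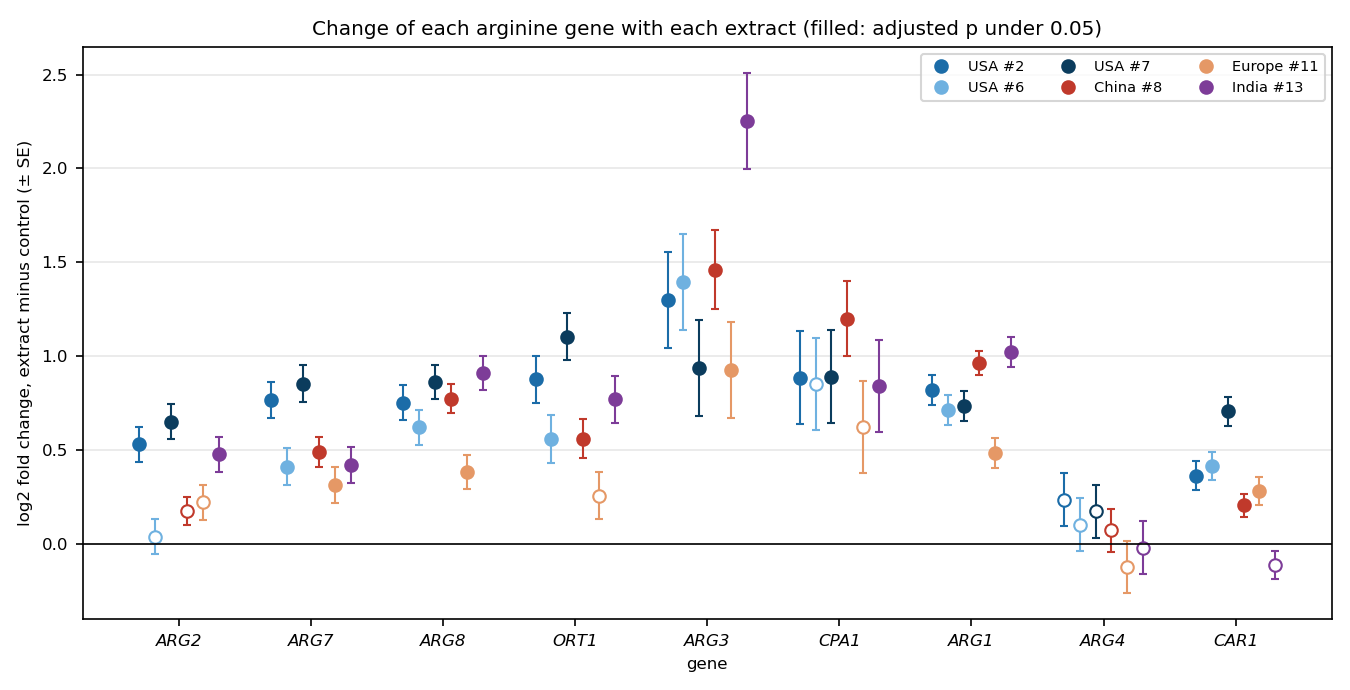
Log2 fold change of each arginine gene (horizontal axis) with each extract against control (vertical axis, extract minus control). Points are limma estimates with bars of 1 SE, filled where the adjusted p was under 0.05. ARG3 with India #13 stands highest at 2.25, and no point of ARG4 is filled.

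Across the set, 5 genes (ARG7, ARG8, ORT1, ARG3 and ARG1) had all 14 extract arrays above all 4 control arrays, as did 5.28% of all probe sets. Of the 9 genes, 6 were higher with at least 5 extracts (5.53% of all). The study's own contrast pooled extract arrays without USA #6 and used Bonferroni adjustment. In that contrast, over 12 extract and 4 control arrays, ARG1 (0.83, SE 0.103, limma Bonferroni-adjusted p = 0.00182) and ARG8 (0.74, SE 0.103, adjusted p = 0.00808) were higher. These are 2 of the 9 genes, against 2.31% of all probe sets. ARG3 had the largest pooled difference, 1.39, and did not pass (limma Bonferroni-adjusted p = 0.425). With Benjamini-Hochberg adjustment 7 of the 9 passed. The share over all probe sets was not computed for that adjustment, so 7 of 9 cannot be set beside 2.31%. Among arrays of batch 2 alone none of the 9 passed under Bonferroni, and without control replicate 1 or 2 only 1 did.

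Only control and China #8 were present in both batches. Between China #8 and control, ARG3 differed by 1.74 in batch 1 and by 1.18 in batch 2, CPA1 by 1.29 and 1.11, ARG1 by 0.94 and 0.99, ARG8 by 0.87 and 0.68, ORT1 by 0.42 and 0.70, ARG7 by 0.44 and 0.54, and ARG2 by 0.14 and 0.21. ARG4 differed by −0.10 in batch 1 and 0.25 in batch 2. All of them but ARG4 therefore ran in the same direction in both batches. In limma's test of condition by batch none of the 9 genes passed, nor did any at an unadjusted p under 0.05. Over all probe sets none passed after adjustment either (0 of 5716), and 10.8% had an unadjusted p under 0.05. The part of the batches and of the 18S rRNA values in the other results was not tested.

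The extracts also differed among themselves. An F-test over the 6 extract means, which does not use the control levels, passed for 7 of the 9 genes (29.7% of all probe sets passed). The smallest value was that of CAR1 (limma adjusted p = 0.000657), followed by ARG2 (0.00546), ARG1 (0.00645), ORT1 (0.00905), ARG7 (0.0121), ARG8 (0.0176) and ARG3 (0.0271). CPA1 and ARG4 did not pass (adjusted p = 0.417 and 0.416).

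Europe #11 was the lowest extract for 7 of the 9 genes. The exceptions were ARG2, lowest with USA #6, and CAR1, lowest with India #13. The highest extract was USA #7 for ARG2, ARG7, ORT1 and CAR1, India #13 for ARG8, ARG3 and ARG1, China #8 for CPA1 and USA #2 for ARG4. USA #7 was thus highest for 3 of the mitochondrial genes, and India #13 for the mitochondrial ARG8 and the cytosolic ARG3 and ARG1. This order was read from the means and not tested as a grouping.

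Over the 15 pairs of extracts, 30 of the 135 gene and pair combinations passed, with p-values adjusted over all probe sets and pairs (5.34% of all such combinations passed). ARG3 was 1.32 lower with Europe #11 than with India #13 (SE 0.296, limma adjusted p = 0.0211), and 1.32 lower with USA #7 than with India #13 (adjusted p = 0.0216). ORT1 was 0.85 higher with USA #7 than with Europe #11 (SE 0.145, adjusted p = 0.00550), and ARG7 0.54 higher (adjusted p = 0.0143). ARG1 was 0.48 higher with China #8 than with Europe #11 (SE 0.0800, adjusted p = 0.00480).

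CAR1 accounted for 8 of these 30 combinations. It was 0.82 higher with USA #7 than with India #13 (SE 0.0868, limma adjusted p = 0.000106), and it was lower with India #13 than with every other extract. CPA1 and ARG4 contributed none. The count of 30 was sensitive to single arrays, being lowest without USA #7 replicate 1 or without Europe #11 replicate 1. The share over all such combinations was not computed there, so the fall cannot be set beside that of all probe sets.

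When the conditions were ordered by mean signal, most neighbours in the order did not pass. Between neighbouring extracts none passed with the same adjustment over probe sets and pairs. The nearest were CAR1 with USA #7 over USA #6 (0.29, SE 0.0868, limma adjusted p = 0.0667) and ARG3 with India #13 over China #8, the next extract (0.79, SE 0.256, adjusted p = 0.0859). Between the lowest extract and control, ARG1, ARG3, ARG7 and ARG8 passed, as given for Europe #11. ARG2, ORT1 and CPA1 did not pass there. For ARG4, control was the fifth of the 7 conditions, and for CAR1 the sixth.

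The 9 profiles were only loosely alike. Over the 7 condition means, the 36 pairs of genes had correlations of −0.16 to 0.96 (median 0.68). ARG8 and ARG1 were the most alike (r = 0.96), and ARG3 and CAR1 the least (r = −0.16). Deviations of the 18 arrays from their condition means correlated at −0.64 to 0.83 (median 0.39), positively in 28 of 36 pairs. ARG7 and CPA1 deviated together most (0.83), and CPA1 and CAR1 in opposite ways (−0.64). These points share arrays and the control group, so the values describe the arrays and were not tested. On single arrays the median difference of the 8 synthesis genes from their control means was 0.28 to 0.90 on extract arrays, lowest on the Europe #11 pair (0.28 and 0.42), and −0.24 to 0.12 on control arrays.

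Of the other arginine genes 8 were analysed. With USA #2, USA #7, Europe #11 and India #13 1 of the 8 was higher, with China #8 2 were and with USA #6 none. With USA #7 and China #8 2 were lower, and with each other extract 1. These counts are near the shares over all probe sets given above, for example 19.1% lower with USA #7 and 20.1% with China #8.

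ALP1, a basic amino acid permease and relative of CAN1, was lower with every extract. It read 4.89 and 4.93 with USA #2, 5.02 and 4.95 with USA #6, 5.53 and 5.28 with USA #7, 4.92, 4.80, 4.97 and 4.92 with China #8, 5.19 and 5.15 with Europe #11, and 4.80 and 4.42 with India #13, against 5.96, 5.82, 5.72 and 5.63 in control. All extract arrays were below all controls. The log2 fold change was −1.17 with India #13 (SE 0.112, limma adjusted p = 8.11e-06) and −0.37 with USA #7 (adjusted p = 0.0168). These signals are dim, within a few log2 units of deleted LEU2. Among arrays of batch 2 alone ALP1 no longer passed with USA #7 (−0.27, adjusted p = 0.0846). CAN1, the main arginine permease, differed by −0.05 to 0.12 and passed with no extract, though it did with USA #7 among arrays of batch 2 alone (0.28, adjusted p = 0.0240).

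CAR2, ornithine aminotransferase, follows CAR1 in breakdown, and CAR2 did not follow it in signal. It was lower with China #8 (log2 fold change −0.70, SE 0.151, limma adjusted p = 0.00207) and USA #7 (−0.58, SE 0.185, adjusted p = 0.0233), the second being the extract with the highest CAR1. With USA #2, USA #6, Europe #11 and India #13 the CAR2 differences were −0.44, −0.22, 0.20 and 0.02 and did not pass. The CAR2 controls read 12.03 and 11.70 in batch 1 and 11.29 and 11.53 in batch 2. Among arrays of batch 2 alone CAR2 differed by −0.35 with USA #7 and no longer passed (adjusted p = 0.0918), by −0.56 with China #8 (adjusted p = 0.0240) and by 0.25 with India #13.

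Of the regulators, ARG80 was higher with USA #7 (log2 fold change 1.05, SE 0.194, limma adjusted p = 0.00112), USA #2 (0.76, adjusted p = 0.0162), India #13 (0.63, adjusted p = 0.0256) and Europe #11 (0.57, adjusted p = 0.0480). It read 8.32 and 8.37 with USA #7, against 7.35, 7.57, 6.87 and 7.38 in control. ARG81 (0.38, adjusted p = 0.00860) and MCM1 (0.60, adjusted p = 0.00292) were higher with China #8 and passed with no other extract. Whether they differed between extracts was not tested here. ARG82 passed with none, but among arrays of batch 2 alone it was higher with USA #2, USA #7 and Europe #11 (0.31, 0.38 and 0.24), and ARG80 passed with USA #6 there as well (0.59, adjusted p = 0.0371). GCN4, whose protein is known to be set mainly at translation, differed by −0.01 to 0.12 and passed with no extract.

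**Figure D3:**
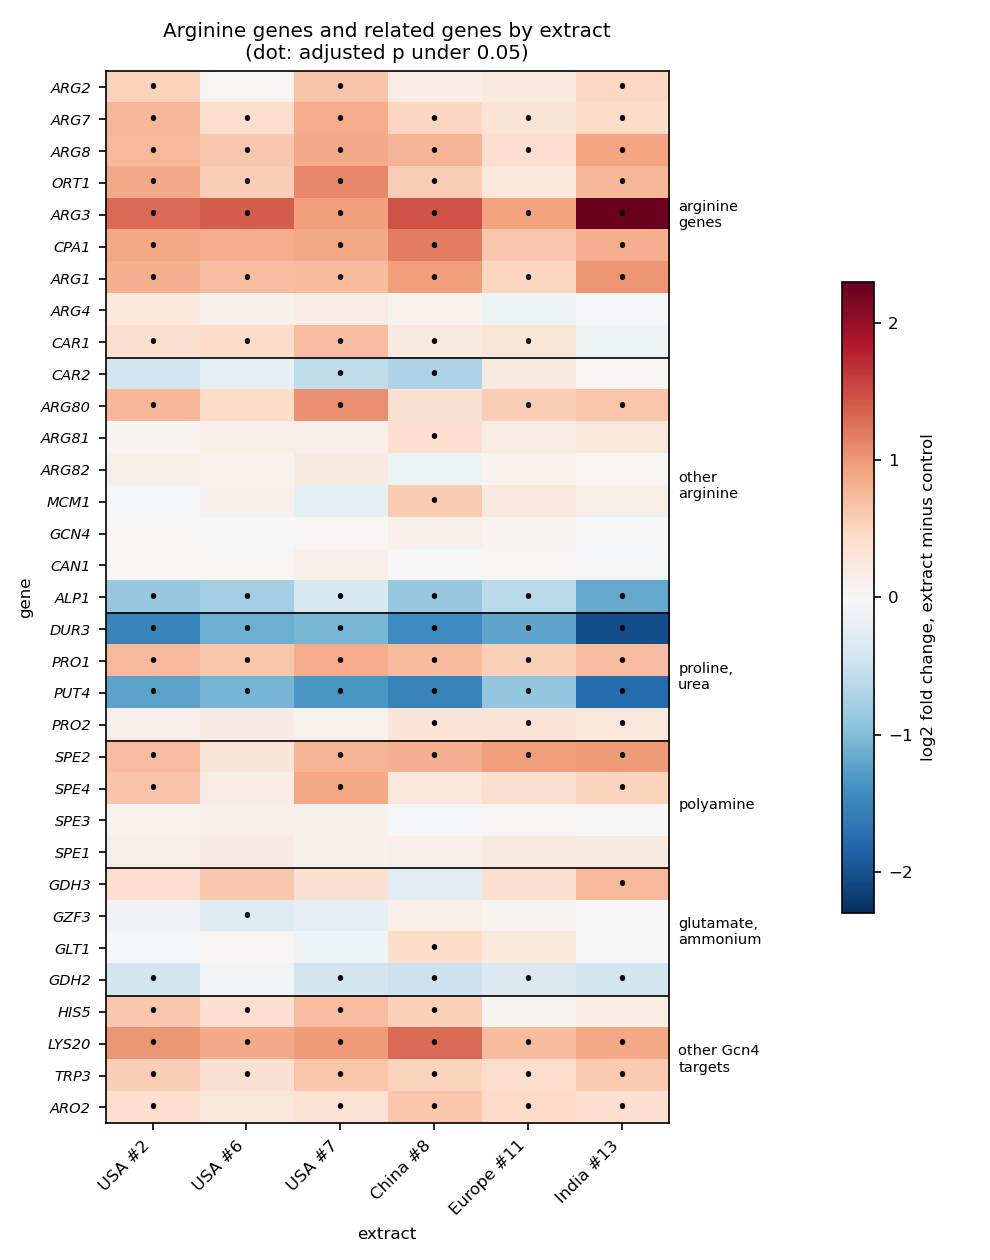
Log2 fold change against control (colour, extract minus control) of the arginine genes and of named genes from 5 related lists (rows), by extract (columns). Dots mark an adjusted p under 0.05. ALP1, DUR3 and PUT4 carry dots and negative values with all 6 extracts, and GCN4 carries none.

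Ornithine and arginine also connect to proline, urea and the polyamines. In the proline and urea list, 8 of 9 genes were measured. With USA #2, USA #6 and USA #7 1 of the 8 was higher, and with the other extracts 2. With USA #7 and China #8 3 were lower, and with the other extracts 2. Over all probe sets 4.11% to 20.4% were higher and 2.9% to 20.1% lower, by extract. The list medians were −0.12 to 0.01. The genes named next had the smallest F-test p of the list. PRO1, which starts proline synthesis, was higher with all 6 extracts at 0.55 to 0.86, and its next enzyme PRO2 with China #8, Europe #11 and India #13 at 0.27 to 0.32. DUR3, a urea and polyamine transporter, was lower with all 6 with log2 fold changes of −2.05 to −1.05, and so was the proline permease PUT4 at −1.77 to −0.89. PUT4 signals were as dim as those of ALP1, and its controls read 6.90 and 6.41 in batch 1 and 5.58 and 6.04 in batch 2. Among arrays of batch 2 alone PUT4 was at −0.65 with USA #6 (limma adjusted p = 0.0240) and at −0.46 with Europe #11, where it no longer passed (adjusted p = 0.0511). DUR3 read 6.78 and 6.50 with India #13, against 8.76, 8.57, 8.83 and 8.59 in control, the lowest pair of all conditions.

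Of 4 polyamine genes, SPE2 (S-adenosylmethionine decarboxylase) was higher with all extracts but USA #6 at 0.72 to 0.99. SPE4, spermine synthase, was higher with USA #7, USA #2 and India #13 (0.88, 0.65 and 0.51). SPE1, the ornithine decarboxylase, and SPE3, spermidine synthase, passed with none. Among arrays of batch 2 alone SPE1 was higher with all extracts but China #8 at 0.25 to 0.34. Of 10 glutamate and ammonium genes, at most 1 was higher and 1 was lower with any extract, where all probe sets gave up to 20.4% higher and up to 20.1% lower. GDH2, the glutamate dehydrogenase that releases ammonium, was lower with all extracts but USA #6, at −0.49 to −0.33, and among arrays of batch 2 alone it no longer passed with China #8 (−0.29) or Europe #11 (−0.23). GDH3 differed by 0.34 to 0.74 with all extracts but China #8 (−0.27), and passed only with India #13. Among arrays of batch 2 alone GDH3 was higher with all extracts but China #8, at 0.60 to 0.99. GLT1 differed by −0.10 with USA #7 to 0.42 with China #8. GLT1 passed only with China #8, and did so among arrays of batch 2 alone as well (0.47, limma adjusted p = 0.00591). GZF3 differed by −0.30 with USA #6 to 0.15 with China #8, and passed only with USA #6.

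The wider group of Gcn4 targets for other amino acids held 30 measured genes. With China #8, 20 were higher and 2 lower (19.9% and 20.1% of all probe sets), with India #13 17 and none (14.2% and 14.6%), and with USA #7 15 and 1 (20.4% and 19.1%). With USA #2, 14 were higher and 1 lower (10.7% and 8.48% of all), with Europe #11 10 and 2 (12.4% and 10%), and with USA #6 5 and 1 (4.11% and 2.9%). Their median log2 fold change was 0.23 to 0.37. The arginine genes had larger medians than this group with each extract, without a test of the difference. LYS20, homocitrate synthase of lysine synthesis, was higher with all 6 extracts, from 0.73 with Europe #11 to 1.31 with China #8 (SE 0.140, limma adjusted p = 8.95e-06). As for CPA1, its control replicate 4 stood highest, at 11.65 against 10.94, 11.06 and 10.91 in the other controls. TRP3 of tryptophan synthesis was higher with all 6 at 0.35 to 0.63, ARO2, chorismate synthase, with all but USA #6, and HIS5 of histidine synthesis with USA #2, USA #6, USA #7 and China #8 at 0.38 to 0.71.

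**Figure D4:**
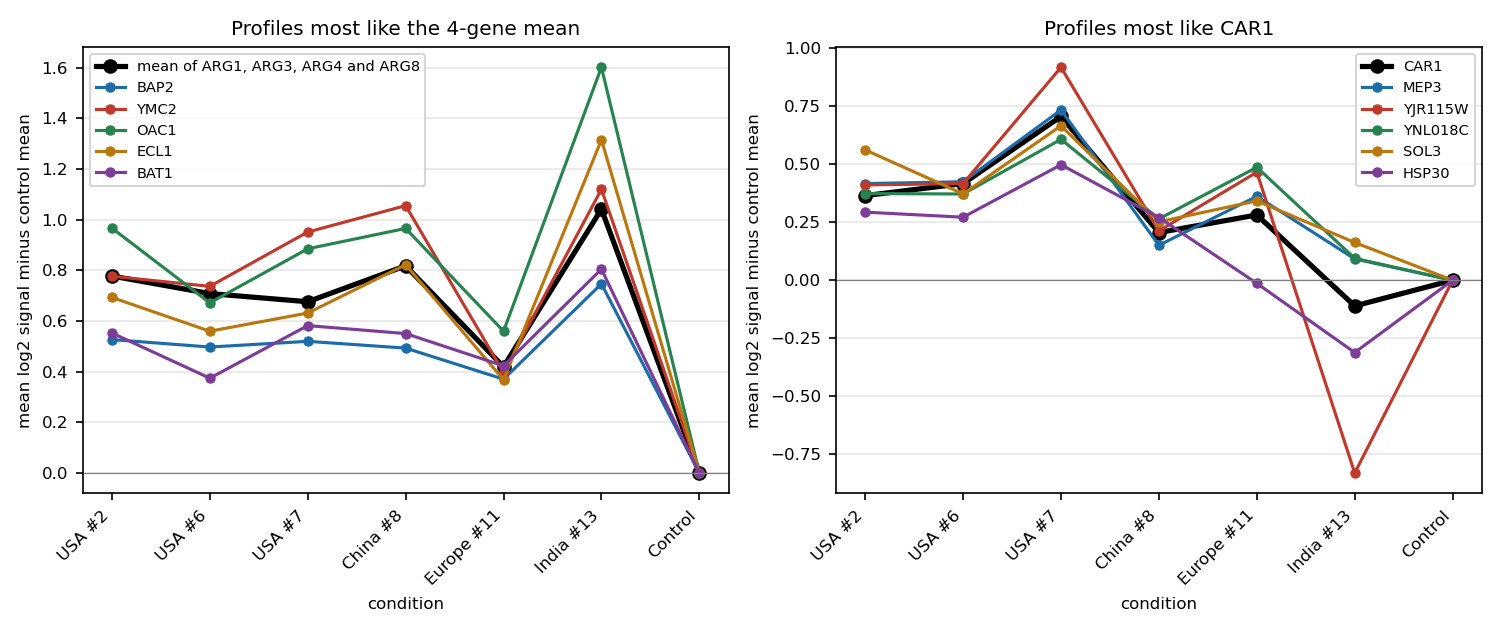
Condition means minus the control mean (vertical axes, log2) for the mean of ARG1, ARG3, ARG4 and ARG8 with its 5 most similar genes (left) and for CAR1 with its 5 (right), over the 7 conditions (horizontal axes). OAC1 is 1.60 above control with India #13, and YJR115W is 0.83 below control there.

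Profiles were also compared across all named genes whose condition means spanned at least 0.5. The mean of ARG1, ARG3, ARG4 and ARG8 over the 7 conditions was most like BAP2, a branched-chain amino acid permease (r = 0.98), YMC2, a mitochondrial carrier (0.96), OAC1, the mitochondrial oxaloacetate carrier (0.95), ECL1 (0.95) and BAT1, the mitochondrial branched-chain aminotransferase (0.94). OAC1 was 1.60 higher with India #13 (SE 0.119, limma adjusted p = 7.23e-07) and 0.56 higher with Europe #11 (adjusted p = 0.00554), and it passed with all 6 extracts. BAT1 passed with all but USA #6, and BAP2 and YMC2 with all but USA #6 and Europe #11. ECL1 passed only with China #8 and India #13, and its control arrays were uneven (SD 0.49). CAR1 was most like MEP3, an ammonium permease (r = 0.95), YJR115W (0.92), YNL018C (0.91), SOL3 of the pentose phosphate pathway (0.90) and HSP30 (0.89). MEP3 was 0.73 higher with USA #7 (adjusted p = 0.000422) and 0.09 higher with India #13, which did not pass except among arrays of batch 2 alone (0.25, adjusted p = 0.0434). YNL018C was dim, with condition means of 3.93 to 4.54 near the level of deleted LEU2. Replicates of YJR115W and HSP30 were uneven, with an SD of up to 0.86 for YJR115W with USA #2 and of 0.68 for HSP30 with India #13, and neither gene passed with any extract. The likeness rests on 7 means picked from 2635 candidates and carries no test. The mean of ARG1, ARG3, ARG4 and ARG8 leaves out ARG2, ARG7, ORT1 and CPA1. In it, ARG1, ARG3 and ARG8 were highest with India #13, so genes like this mean need not resemble the whole set.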

How the data were processed

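RNA of yeast cultures had been hybridised to Affymetrix Yeast Genome 2.0 arrays. The deposited values were log2 signals, which per the labels and methods the authors made with RMA. RMA and limma appear, with no version, in the notes the submitters gave on processing. The table held 5900 probe sets on 18 arrays, between 2.73 and 14.49. Control probe sets (184, of which 47 were reporter genes) were set aside and 5716 were tested, 5498 of them with a gene name. Names came from the platform annotation, with 12 symbols updated through RefSeq.

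limma 3.58.1 in R 4.3.3 fitted 7 conditions without a batch term (11 residual degrees of freedom). Contrasts were each extract against control, an F-test among the 6 extracts, all 15 pairs, 12 pooled extract arrays against 4 controls with Bonferroni adjustment, and China #8 by batch. Other adjustments were by Benjamini-Hochberg with a threshold of 0.05. The fits were tested on simulated data. Where cultures shared a source, p-values measure only the spread between these samples, and the number of arrays limits the precision.

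The 9 genes and all lists were chosen with earlier results of these data known. All 9 and every measured gene of the other arginine list were named. From each further list the 4 genes with the smallest F-test p over the 7 conditions were named, and for likeness the 5 genes with the highest r. Alternatives covered scaling, dim probe sets (mean under 6), named probe sets only, batch, the replicate block, the variance prior, the adjustment, the arrays fitted and each array left out.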

Additional observations from a re-analysis of the deposited data

Results flagged for a closer look

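Each gene named above was checked for a single array that stood far from the other 3 of its condition, in control and in China #8, the conditions with 4 arrays. The gap of such an array to its nearest neighbour was divided by the range of the condition. Of 86 such groups 5 exceeded the critical value of Dixon's test, and chance exceeds it in about 1 of 20. All 5 were China #8 arrays. ARG7 was low in replicate 1 (11.63, the others 11.91 to 11.93, ratio 0.940), and CAN1 was high in the same array (10.91, the others 10.78 to 10.80, ratio 0.889). DUR3 was high in replicate 3 (7.89, the others 6.98 to 7.10, ratio 0.863), and so was ARO2 (12.26, the others 12.06 to 12.10, ratio 0.830). PUT4 was low in replicate 2 (4.44, the others 4.77 to 4.83, ratio 0.852).

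The response to the extracts differed among the 6 extracts by limma's F-test for 7 of the 9 arginine genes. Adjusted p was 0.000657 for CAR1, 0.00546 for ARG2, 0.00645 for ARG1, 0.00905 for ORT1, 0.0121 for ARG7, 0.0176 for ARG8 and 0.0271 for ARG3. The share over all probe sets was 29.7%.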

How the results depend on the processing

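Under 34 alternative settings (32 planned, 2 added after seeing the data) 1683 values of the 9 genes were recomputed, of which 1597 kept their side of the threshold, 73 lost it and 13 gained it. No called value changed direction, while 12 values of ARG4 and of ARG2 with USA #6 that were not called changed sign. ARG1 lost its call only with Europe #11 under Bonferroni adjustment. With only extract and control arrays in the fit, 5 genes were called with USA #2, 3 with USA #6 and 7 with USA #7. China #8 gave 6, Europe #11 gave 2 and India #13 gave 4. Over all probe sets 4.02%, 1.96%, 22.3%, 28.4%, 6.82% and 10.1% were then called in either direction, in that order. Bonferroni adjustment left 4 with USA #2, 1 with USA #6, 6 with USA #7 and 3 with China #8. It left 0 with Europe #11, 3 with India #13 and 1 in the F-test. Of all probe sets it left 1.4%, 1.07%, 3.46%, 6.63%, 1.49% and 2.66% with these extracts, in that order. The F-test share under Bonferroni was not computed. In the pooled contrast Benjamini-Hochberg gave 7, arrays of batch 2 alone gave 0, and leaving out the control and China #8 arrays of batch 2 (added) gave 0, against 2. Shares over all probe sets were not computed for these alternatives of the pooled contrast. Batch 1 alone gave 4 with China #8 (19.3% of all probe sets were called). Batch as a block gave 46 pairs of extracts in place of 30, and the share over all pairs was not computed there. Shared replicate numbers were not taken to pair the cultures, because deviations of same-numbered arrays correlated at −0.38 to 0.57 in batch 2, over 0.1 in 7 of 21 pairs of conditions. They correlated at 0.75 in the only pair of batch 1, China #8 with control. With these numbers the replicate block gave 48 pairs of extracts and 1 gene in the pooled contrast. Shares over all probe sets were not computed for these counts.

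With each array left out in turn, the counts were 5 to 8 with USA #2 (lowest without USA #2 replicate 2), 2 to 7 with USA #6 (USA #6 replicate 1), 6 to 8 with USA #7, 7 to 8 with China #8, 1 to 6 with Europe #11 (Europe #11 replicate 2), 5 to 7 with India #13, 5 to 7 in the F-test, 14 to 34 pairs of extracts (USA #7 replicate 1 or Europe #11 replicate 1), 1 to 2 in the pooled contrast (control replicate 1 or 2) and 0 to 0 for China #8 by batch. The genes higher with all 6 extracts numbered 1 to 5 (1 without Europe #11 replicate 2). An extract left with 1 array was assumed to vary like the others. The share of all probe sets called also moved with the array left out, as given above for USA #2, USA #6 and Europe #11. Such shares were not computed for the F-test, the pairs of extracts or the pooled contrast. The causes were not tested. With 2 arrays for most extracts, changes of ARG4 of the size of its SE could not be detected.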
